A study of Mus musculus with 8 samples.

Results

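Zinc finger genes named Zfp, Zbtb, Zkscan or Zscan were compared in ear skin between adult mice with induced inactivation of Cdsn and WT mice. Cdsn encodes corneodesmosin, a secreted adhesion glycoprotein of the outer epidermis. The genes are all those with such a symbol in the authors' deposited table of probe sets that differed between KO and WT. This gave 29 genes, each with a single probe set, out of 3024 distinct symbols in that table. They were therefore chosen by the comparison described here: the table keeps probe sets whose adjusted p is under 0.05 and whose log2 difference is 0.5 or more in size. The differences below are a description of the chosen genes and no test of them.

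The arrays came from 4 KO and 4 WT mice, 1 mouse an array, on the background that the labels give as C57B/6J. KO mice (Cdsn iep-/-) were KRT14-CreERT2(tg/0) with floxed Cdsn alleles (Cdsn fl/fl) and WT mice were KRT14-CreERT2(tg/0) with Cdsn wt/wt. Both groups were 7 to 12 weeks old and received 100 µg of 4-hydroxytamoxifen on each ear daily for up to 15 days, so the inducible recombinase and the drug were common to them. The KRT14 promoter is active in basal keratinocytes, and whole ear skin also holds cells in which it is not, so in these samples fewer cells of a type and less RNA per cell cannot be told apart. Values are log2 values of probe sets after RMA, a method that corrects background, brings arrays to a common distribution and combines the probes of each set into 1 value. In the deposited values the array medians still differed by group, at 5.52 to 5.59 on KO arrays and 5.43 to 5.49 on WT arrays.

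Zinc finger proteins of this kind bind DNA or RNA through short loops held by a zinc ion between cysteines and histidines. Many carry a KRAB domain, which recruits the co-repressor Trim28 and, with it, histone methylation, and are known for silencing retrotransposons. Others carry a SCAN domain, which pairs such proteins with each other, or a POZ domain (the Zbtb genes). KRAB zinc finger genes lie in clusters of near-identical neighbours that arose by duplication.

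In KO ear skin 12 of the 29 zinc finger genes were higher and 17 were lower. Of all 33793 probe sets, 10.1% met the criteria of the table, 7.63% as higher and 2.47% as lower. Lower genes thus made up 58.6% of the zinc finger genes and 24.5% of all 3411 probe sets of the table (2577 higher and 834 lower). The differences of the 29 genes ran from -1.41 (Zfp947) to 1.34 (Zscan4e) on the log2 scale, with a median of -0.56. The table leaves out differences below its size threshold. This median therefore follows the direction of the majority and is no typical shift of the family. The 7 genes on chromosome 17 (1 higher and 6 lower) had a median of -0.73. The 22 genes elsewhere (11 higher and 11 lower) had a median of -0.0002, as neither direction had a majority there. The RefSeq genes of GRCm38.p6 hold 493 genes with such symbols, of which the 29 are 5.88%. With 3 more that the table lists under older symbols, described below, 32 (6.49%) were in the table, and the rest either missed its criteria or had no named probe set here. Of the 42 Zbtb genes in RefSeq none was in the table. Under its own symbols the table held 24 of 419 Zfp genes (8 higher and 16 lower; 27 with the older symbols), 4 of 21 Zscan genes (3 higher and 1 lower) and 1 of 11 Zkscan genes.

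Of the 29 genes, 28 had KO and WT values that did not overlap, a property of 21.5% of all probe sets, and Zfp40 was the exception. The genes were chosen by this same comparison, so their separation largely follows from the choice. The plot of values by array shows all 8 values of every gene.

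**Figure D1:**
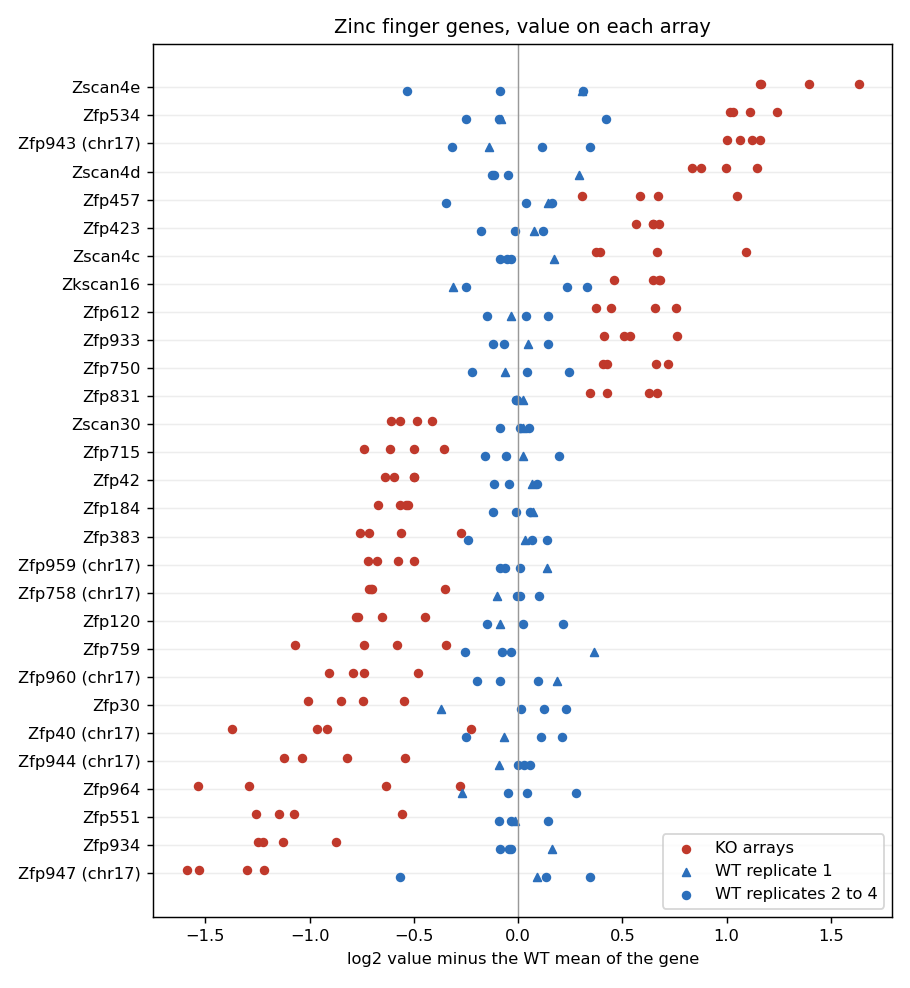
Log2 value of each of the 29 zinc finger genes on each array, minus the mean of that gene's 4 WT arrays (x axis, log2 units); each row is a gene, red circles are the 4 KO arrays, blue circles WT replicates 2 to 4 and blue triangles WT replicate 1. The 12 genes at the top have all KO arrays above all WT arrays, and of the 17 below only Zfp40 overlaps.

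The promoters of 20 of the 29 genes were matched in RefSeq sequences of GRCm38.p6. They are shown for the 3 pairs of neighbouring family members with the most similar promoters, so that sequence and direction of change can be read side by side. Among the 190 pairs that the 20 genes form, the 250 bases before a transcript start aligned with a median identity of 49.3%. Identity was 93.8% for Zfp943 and Zfp758, 89.3% for Zscan4c and Zscan4d and 74.0% for Zfp759 and Zfp457, and at most 54.4% for every other pair.

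The first pair lies in the zinc finger cluster of chromosome 17. Each sequence is the 250 bases before the start of a RefSeq transcript. Capitals mark bases that differ from, or have no partner in, the other gene of the pair.
Zfp943, chr17:21962309-21962558, plus strand: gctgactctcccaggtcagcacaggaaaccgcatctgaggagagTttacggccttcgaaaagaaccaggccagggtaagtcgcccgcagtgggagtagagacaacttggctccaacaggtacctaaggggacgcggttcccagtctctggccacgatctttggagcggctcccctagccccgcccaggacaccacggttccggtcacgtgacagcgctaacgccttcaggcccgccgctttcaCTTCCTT
Zfp758, chr17:22361213-22361462, plus strand: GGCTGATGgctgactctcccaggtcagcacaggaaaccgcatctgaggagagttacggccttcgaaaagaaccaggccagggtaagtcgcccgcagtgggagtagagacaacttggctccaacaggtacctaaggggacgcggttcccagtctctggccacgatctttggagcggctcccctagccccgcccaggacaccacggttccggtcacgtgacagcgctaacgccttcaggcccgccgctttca
Within the 243 aligned columns that both sequences span, 1 was not identical, and the remaining capitals are bases at the ends that have no partner.

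The second pair belongs to the Zscan4 group of chromosome 7, shown with the same meaning of the capitals.
Zscan4c, chr7:11005495-11005744, plus strand: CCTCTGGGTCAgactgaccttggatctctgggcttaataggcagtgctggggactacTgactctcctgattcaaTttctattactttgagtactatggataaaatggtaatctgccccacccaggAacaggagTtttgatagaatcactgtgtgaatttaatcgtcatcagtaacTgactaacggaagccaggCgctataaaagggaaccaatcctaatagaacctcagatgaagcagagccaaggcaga
Zscan4d, chr7:11166149-11166398, minus strand: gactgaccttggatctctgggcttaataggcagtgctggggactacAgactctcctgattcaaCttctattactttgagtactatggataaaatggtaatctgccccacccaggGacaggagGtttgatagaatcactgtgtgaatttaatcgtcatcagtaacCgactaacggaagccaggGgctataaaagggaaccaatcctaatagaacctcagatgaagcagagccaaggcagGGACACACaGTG
Here 14 of the 247 columns between the first and last matched bases were not identical. They include a run of Zscan4d bases near its end that has no partner in Zscan4c, so not all are substitutions.

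The third pair lies in the cluster of chromosome 13 that holds the candidate genes for regulator of sex limitation.
Zfp759, chr13:67127978-67128227, plus strand: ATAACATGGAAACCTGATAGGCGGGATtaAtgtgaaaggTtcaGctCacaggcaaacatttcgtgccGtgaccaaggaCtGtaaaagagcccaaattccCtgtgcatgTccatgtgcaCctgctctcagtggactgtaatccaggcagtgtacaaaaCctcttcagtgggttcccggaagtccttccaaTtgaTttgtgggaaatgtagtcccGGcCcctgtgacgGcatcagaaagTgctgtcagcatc
Zfp457, chr13:67306413-67306662, minus strand: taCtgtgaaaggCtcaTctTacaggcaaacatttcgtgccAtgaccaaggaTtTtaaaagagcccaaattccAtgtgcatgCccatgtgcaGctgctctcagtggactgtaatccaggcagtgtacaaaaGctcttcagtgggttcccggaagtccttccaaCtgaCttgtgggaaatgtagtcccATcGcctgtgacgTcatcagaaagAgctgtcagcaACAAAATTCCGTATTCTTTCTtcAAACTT
Here 39 of the 244 columns between the first and last matched bases were not identical. They include a run of Zfp457 bases near its end that has no partner in Zfp759, so not all are substitutions. The Zfp759 sequence precedes a transcript start 6569 bases inside the RefSeq gene, so it is not the promoter at the outer end of that gene. The pairs differed in their direction in KO: Zscan4c and Zscan4d were both higher, whereas Zfp943 was higher and Zfp758 lower, and Zfp457 was higher and Zfp759 lower.

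Both genes of the pair with the most similar promoters were measured by probe sets of cross-hybridisation class 1, the unique class of the array's annotation, while class 3 marks probes that also match other transcripts. Zfp943 read 4.10, 4.14, 3.98 and 4.04 in KO replicates 1 to 4 and 2.83, 3.09, 2.66 and 3.32 in WT replicates 1 to 4. All KO arrays lay above all WT arrays and spanned 0.16, and the difference was 1.09 (SE 0.15), or 2.12-fold. The probe set was dim (percentile 18.2), with no detection call, so whether its WT values exceed background was not analysed. Zfp758 read 5.75, 5.76, 6.11 and 5.74 in KO and 6.36, 6.56, 6.45 and 6.47 in WT. All KO arrays were lower, KO replicate 3 least so, and the difference was -0.62 (SE 0.12), which left 65.1% of the WT level.

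Cdsn, the targeted gene, lies on chromosome 17 at 35543101 to 35557180. It read 10.31, 8.89, 9.82 and 9.49 in KO and 12.05, 11.76, 12.13 and 12.06 in WT. No KO array reached the WT range, and the mean was 19.3% of the WT level (log2 difference -2.37, SE 0.26, limma adjusted p = 0.00203; exact two-sided permutation p = 0.0286, the smallest that 4 against 4 arrays allow). Of the zinc finger genes, 7 lie on the same chromosome, 1 higher and 6 lower. For these an effect of Cdsn loss and alleles carried along with the floxed gene cannot be told apart.

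Of the 152 other probe sets of the table on chromosome 17, 45 (29.6%) were lower, and of the 3230 other probe sets elsewhere 772 (23.9%). Among the zinc finger genes the lower share was 6 of 7 on chromosome 17 (85.7%) and 11 of 22 elsewhere. With older symbols counted, the table held 7 of 52 RefSeq family members of chromosome 17 (13.5%), 4 of 28 of chromosome 8 (14.3%), 5 of 37 of chromosome 4 (13.5%), 4 of 44 of chromosome 13 (9.09%), 3 of 36 of chromosome 2 (8.33%) and 7 of 110 of chromosome 7 (6.36%). It also held 1 of 13 of chromosome 18 (7.69%) and 1 of 26 of chromosome 11 (3.85%). It held none of the 25 on chromosome 5, the 24 on chromosome 9 or the 19 on chromosome 6, and none on the chromosomes not named here, each with fewer.

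Of the 7, 4 sit within 431 kb of one another, at 21962559 to 22393909, about 13 Mb before Cdsn in the direction of the centromere. RefSeq lists 5 family members in that span, and Zfp994 is the only one absent from the table. In order along the chromosome they are Zfp943, Zfp947, Zfp944 and Zfp758, the first higher and the other 3 lower in KO. The plot of difference against distance from Cdsn places them among all genes of the table on this chromosome.

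**Figure D2:**
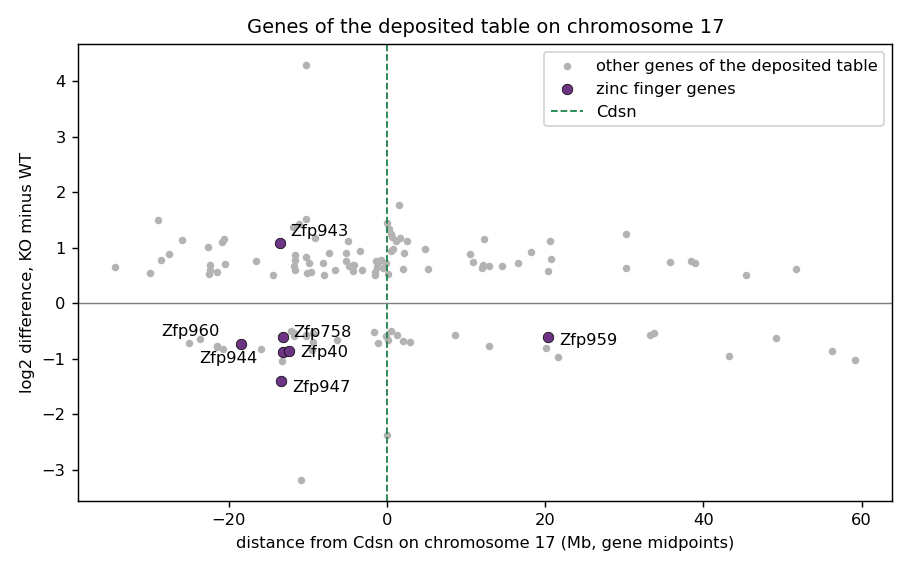
Log2 difference (KO minus WT, y axis) of the 127 genes of the deposited table that could be placed on chromosome 17, against the distance of the gene midpoint from Cdsn (x axis, Mb); purple points are the 7 zinc finger genes, grey points the other genes, and the dashed line marks Cdsn. Zfp960 (-18.5 Mb), Zfp943 (-13.6), Zfp947 (-13.4), Zfp944 (-13.2), Zfp758 (-13.2) and Zfp40 (-12.4) lie before Cdsn, and Zfp959 (20.3) beyond it.

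Zfp947 had the largest fall of all 29 genes. It read 4.27, 4.35, 4.04 and 3.98 in KO and 5.66, 5.91, 5.70 and 5.002 in WT. The groups were 0.65 log2 units apart at their closest, WT replicate 4 being the WT array nearest to KO. The mean was 37.7% of the WT level (difference -1.41, SE 0.19).

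Zfp944 is transcribed away from Zfp758, and their RefSeq genes are separated by 1 base. It read 5.03, 5.30, 4.72 and 4.81 in KO and 5.76, 5.88, 5.85 and 5.91 in WT. The WT arrays were tight (SD 0.06) and the KO arrays less so (SD 0.26). Zfp944 was at 54.3% of its WT level (difference -0.88, SE 0.14), and both genes of this head-to-head pair were lower.

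Further along lies Zfp40, which read 4.20, 4.61, 5.34 and 4.65 in KO and 5.50, 5.78, 5.32 and 5.68 in WT. KO replicate 3 lay above WT replicate 3, so the groups overlapped. Its difference was -0.87 (SE 0.22), or -1.08 without KO replicate 3.

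Zfp960 was the brightest of the 7. It read 8.51, 8.40, 8.82 and 8.56 in KO and 9.49, 9.40, 9.11 and 9.21 in WT. All KO arrays were lower, by 0.28 at the closest, and the difference was -0.73 (SE 0.13, 60.3% of WT). Its probe set is of class 3, so transcripts of related genes may contribute to its value.

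Zfp959, on the far side of Cdsn, read 6.48, 6.33, 6.55 and 6.38 in KO and 7.19, 6.97, 7.06 and 6.99 in WT. Both groups were uniform, with an SD of 0.10 each, and did not overlap. The difference was -0.62 (SE 0.10). KO replicate 3 was the KO array nearest to WT for 5 of the 7 chromosome 17 genes and for 5 of the 22 others.

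The Zscan4 genes are known from mouse embryos and embryonic stem cells, where they are switched on briefly at the first cleavage stages and are linked to telomere maintenance. The table held 3 of them, all higher in KO, within 305 kb of chromosome 7 (11005745 to 11310682). All are of class 3, so they are not independent measurements of separate genes. Zscan4e, which RefSeq lists as a pseudogene, read 3.97, 4.21, 3.74 and 3.74 in KO and 2.88, 2.49, 2.05 and 2.89 in WT. The groups were 0.85 apart at their closest, and the difference of 1.34 (SE 0.20, 2.53-fold) was the largest rise of the 29 genes.

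Zscan4d read 5.49, 5.34, 5.22 and 5.18 in KO and 4.63, 4.23, 4.29 and 4.22 in WT. WT replicate 1 was the highest WT array, still 0.55 below the lowest KO array, and the difference was 0.96 (SE 0.13). Zscan4c read 3.75, 4.47, 3.77 and 4.04 in KO and 3.55, 3.32, 3.29 and 3.34 in WT, and its KO replicate 2 stood above the rest. Its difference was 0.63 (SE 0.17), or 0.48 without KO replicate 2, and 3 of 8 fits that each dropped 1 array called it.

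All 3 Zscan4 probe sets were dim. Their means over the 8 arrays lay at percentiles 14.8 to 38.5 of all probe sets. No detection call was used, so these values do not show whether the genes were transcribed.

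In all 3, WT replicate 1 lay part of the way to KO, at 0.28 to 0.37 of the distance from the mean of the other WT arrays to the KO mean. On that scale the median was -0.06 for the 29 genes and 0.08 for the probe sets of the table. WT replicate 1 was more than 0.25 of the way for 6 of the 29 genes (20.7%), and for 28.7% of the table. Besides the Zscan4 genes these were Zfp30, Zfp964 and Zfp457, and none was on chromosome 17. On the first principal component over all probe sets (50.4% of the variance) WT replicate 1 was at 2.60 and the other WT arrays at 43.5 to 50.5. KO replicates 1 to 4 were at -75.3, -57.8, -4.47 and -6.84. WT replicate 1 thus lay towards KO, and KO replicates 3 and 4 lay towards WT.

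Zfp42, also called Rex1, is a marker of pluripotent stem cells, and differed from the Zscan4 genes in direction. It read 4.36, 4.45, 4.45 and 4.31 in KO and 5.02, 4.91, 5.04 and 4.84 in WT. The KO arrays spanned 0.14 and stayed 0.38 below the lowest WT array, a difference of -0.56 (SE 0.10). Its probe set was dim too (percentile 35.8), and without a detection call its values do not show whether Zfp42 was transcribed. Of the 34 genes in a list of SCAN domain and early embryo zinc finger factors, the table held 5. Of all probe sets, 10.1% met the criteria of the table. In that list Zkscan16 and the 3 Zscan4 genes were higher and Zfp42 was lower. Zscan30, which that list does not hold, was also lower.

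Zkscan16, whose name gives it both a KRAB and a SCAN domain, read 5.06, 4.84, 5.03 and 5.06 in KO and 4.07, 4.61, 4.71 and 4.13 in WT. The WT arrays fell into a lower pair (replicates 1 and 4) and a higher pair, both below KO. The difference was 0.62 (SE 0.16). Zscan30, on chromosome 18, had KO arrays at 4.94 to 5.14 and WT arrays at 5.47 to 5.61 (difference -0.52, SE 0.09).

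Zfp750 is a transcription factor of epidermal differentiation known from human keratinocytes to act downstream of p63, and it was the brightest of the 29 genes, at percentile 97.6 of all probe sets. It read 10.77, 11.02, 11.08 and 10.79 in KO and 10.30, 10.14, 10.60 and 10.40 in WT. All KO arrays were higher, with a gap of 0.16 to the highest WT array, and the difference was 0.55 (SE 0.13, 1.47-fold). Over the 8 fits that each dropped 1 array the difference was 0.48 to 0.63, and 3 of them, with fewer arrays, called it. It was 0.39 with an adjusted p of 0.0948 (limma) after quantile normalization.

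Of all probe sets, 10.1% met the criteria of the table. In a list of 18 epidermal zinc finger factors that Zfp750 belongs to, 3 were in the table, all higher. The others were the epidermal differentiation factor Ovol1 (difference 0.63, SE 0.15) and the immediate early factor Egr1 (0.93, SE 0.26). Neither Klf4 nor Gata3 was among them. Of 16 keratinocyte markers, 4 were in the table, with Krt1, Ivl and Dsc1 higher and Cdsn lower. The unlogged values of these 4, Cdsn itself included, were summed. The log2 of the sum was 13.50 to 14.25 in KO, 13.85 in WT replicate 1 and 13.06 to 13.15 in the other WT arrays. The brightest gene counts most in it, which was Krt1 on the KO arrays and Cdsn on WT replicates 2 to 4. Chosen by the same comparison, these 4 markers give no separate measure of keratinocyte content. Their part in the value of Zfp750 was not tested.

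Zfp423 is known as a factor of preadipocyte commitment and a partner of Ebf proteins. It read 6.88, 6.96, 6.96 and 6.99 in KO and 6.39, 6.44, 6.30 and 6.14 in WT. The KO arrays spanned 0.11 (SD 0.05), all were higher, and the difference was 0.63 (SE 0.10, 1.55-fold). Among the 12 higher genes only 4 had a mean above the median of all probe sets, namely Zfp750, Zfp423, Zfp933 and Zfp612.

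On chromosome 4, Zfp534 and Zfp933 lie within 175 kb in a cluster of KRAB zinc finger genes and were both higher. Zfp534 read 3.70, 3.92, 3.80 and 3.71 in KO and 2.60, 2.59, 2.43 and 3.11 in WT. All KO arrays were at least 0.59 above the highest WT array, replicate 4, and the difference was 1.10 (SE 0.15, 2.14-fold). Its probe set is dim (percentile 14.6) and of class 3. Zfp933 was brighter, with KO arrays from 7.10 up to 7.45 against WT arrays from 6.57 up to 6.83, a difference of 0.55 (SE 0.11).

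RefSeq gives a family name to 3 further probe sets that the table lists under other symbols, 2 of them on chromosome 4 before Zfp534. Zfp982 (listed as Gm13152) was lower, at 3.72 ± 0.13 in KO against 5.20 ± 0.20 in WT (mean ± SD over 4 arrays). Its difference of -1.48 was a larger fall than that of Zfp947 (-1.41). Zfp978 (listed as Gm13145, class 3) was higher, at 6.93 ± 0.21 against 6.23 ± 0.13. On chromosome 2, Zfp967 (listed as Gm14431, class 3) was lower, by 0.60 log2 units in size. They are not counted among the 29.

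On chromosome 13, Zfp759 and Zfp457, shown above for their related promoters, lie within 185 kb and moved apart. Zfp759 read 5.54, 5.70, 5.94 and 5.21 in KO and 6.65, 6.25, 6.03 and 6.20 in WT. KO replicate 3 and WT replicate 3 were only 0.09 apart, and the difference was -0.68 (SE 0.18). Zfp457 read 3.01, 2.92, 2.65 and 3.39 in KO and 2.49, 1.99, 2.50 and 2.38 in WT, at percentile 8.25 of all probe sets, the dimmest of the 29. Its difference of 0.65 (SE 0.18) and that of Zfp759 were each called in 1 of 8 such fits.

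Also on chromosome 13, Zfp934 had the second largest fall. It read 3.01, 3.38, 3.03 and 3.13 in KO and 4.42, 4.21, 4.22 and 4.17 in WT. The groups were 0.79 apart, and the difference was -1.12 (SE 0.12, 46.1% of WT). Its probe set is dim (percentile 20.5) and of class 3, and no detection call was used. Zfp184 was lower with little spread, with KO arrays between 4.51 and 4.66, WT arrays between 5.07 and 5.26 (difference -0.58, SE 0.10).

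On chromosome 7, Zfp551 read 4.30, 4.19, 4.37 and 4.89 in KO and 5.43, 5.41, 5.35 and 5.59 in WT. KO replicate 4 was the closest to WT and still 0.47 below it, and the difference was -1.01 (SE 0.16, 49.7% of WT). Zfp30 and Zfp383 lie within 133 kb of each other and were both lower. Zfp30, which mouse genetics has linked to neutrophil recruitment in the airway, read 5.35, 5.51, 5.62 and 5.82 in KO and 5.99, 6.49, 6.59 and 6.38 in WT.

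WT replicate 1 was the WT array nearest to KO for Zfp30, 0.54 of the way, and the difference was -0.79 (SE 0.16), or -0.91 without that array. Of 13 neutrophil markers, 5 were in the table, all higher, where 10.1% of all probe sets met its criteria. The unlogged values of those 5 were summed, so the brightest genes count most. The log2 of the sum was 12.01 to 13.60 in KO, 11.94 in WT replicate 1 and 7.36 to 9.04 in the other WT arrays. These 5 were chosen by the same comparison, so a gap between the groups follows from the choice. In WT replicate 1, S100a8 (11.57) lay within the KO range, S100a9, Cxcr2 and Ly6g lay between the other WT arrays and KO, and Camp (3.18) was the lowest of the WT arrays. Their part in the value of Zfp30 was not tested. Zfp383 was lower by 0.58 (SE 0.14) in size, with KO arrays at 5.51 to 6.00 and WT arrays at 6.03 to 6.41, and Zfp715 by 0.55 (SE 0.12), at 5.66 to 6.05 against 6.24 to 6.60.

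Zfp964, on chromosome 8, had the widest KO spread of the 29 genes (SD 0.58). It read 3.46, 3.70, 4.72 and 4.36 in KO and 4.73, 4.95, 5.04 and 5.27 in WT. KO replicate 3 came within 0.01 of WT replicate 1, and the difference was -0.93 (SE 0.26). It was likewise called in 1 of 8 such fits. On the same chromosome Zfp612 was higher, with KO arrays between 6.66 and 7.05, WT arrays between 6.14 and 6.43 (difference 0.56, SE 0.12).

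The remaining genes lie on chromosome 2. Zfp120 was lower, with KO arrays between 4.80 and 5.13, WT arrays between 5.42 and 5.79 (difference -0.66, SE 0.12). Zfp831 read 5.60, 5.31, 5.39 and 5.63 in KO and 4.99, 4.96, 4.96 and 4.96 in WT. The WT arrays spanned 0.03 (SD 0.02), all KO arrays were higher, and the difference was 0.52 (SE 0.10), the smallest rise among the 29.

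The zinc finger genes lay around the middle of the array in level. Of the 29, 18 had a mean below the median of all probe sets, and their median percentile was 45.6, against 32.7 for the probe sets of the table. Probe sets of class 3 made up 20.7% of them (6 genes: Zfp934, Zfp960, Zfp534 and the 3 Zscan4 genes) and 19.8% of the table. The plot of level against difference shows them within the spread of all probe sets.

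**Figure D3:**
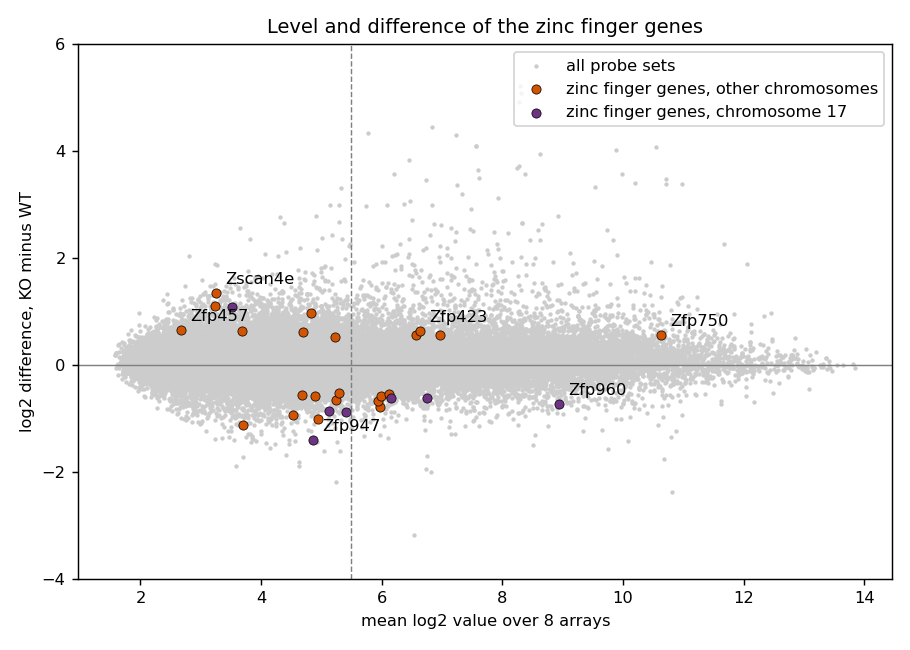
Log2 difference (KO minus WT, y axis) against mean log2 value over the 8 arrays (x axis) for all 33793 probe sets (grey), the 7 zinc finger genes of chromosome 17 (purple) and the 22 others (orange); the dashed line is the median level of all probe sets. Zfp750 and Zfp960 are the brightest, and most of the genes lie left of the line.

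The size threshold of the table is 0.5. Just inside it were Zfp831 at 0.52 and Zfp750 at 0.55 on the higher side, and Zscan30 at -0.52 and Zfp715 at -0.55 on the lower side. Probe sets just outside it have no name here, and 1017 probe sets passed the adjusted p with a smaller difference. The selected genes had adjusted p from 0.00171 (Zfp934) to 0.0477 (Zfp964).

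The balance of directions depended on scaling. The median difference over all probe sets was 0.094 as deposited, -0.021 with quantile scaling and -0.005 when arrays were centred on their medians. Of all calls at adjusted p under 0.05 (13.1% of probe sets, 9.91% higher and 3.19% lower) 75.7% were higher as deposited, 49.1% after quantile normalization and 53.2% after median centring. Both scalings thus moved differences downwards by less than the size at which the genes were chosen, so their directions could hardly change and the lower genes gained in size. The 17 lower genes and 8 of the 12 higher genes were called under each (limma, adjusted p under 0.05), where 10.2% and 10.1% of all probe sets were called. Zfp750, Zkscan16, Zscan4c and Zfp457 lost the call under both. Zfp831, Zfp933 and Zfp612 were called but fell below a size of 0.5, so 5 higher and 17 lower genes still met both criteria of the table under either scaling.

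**Figure D4:**
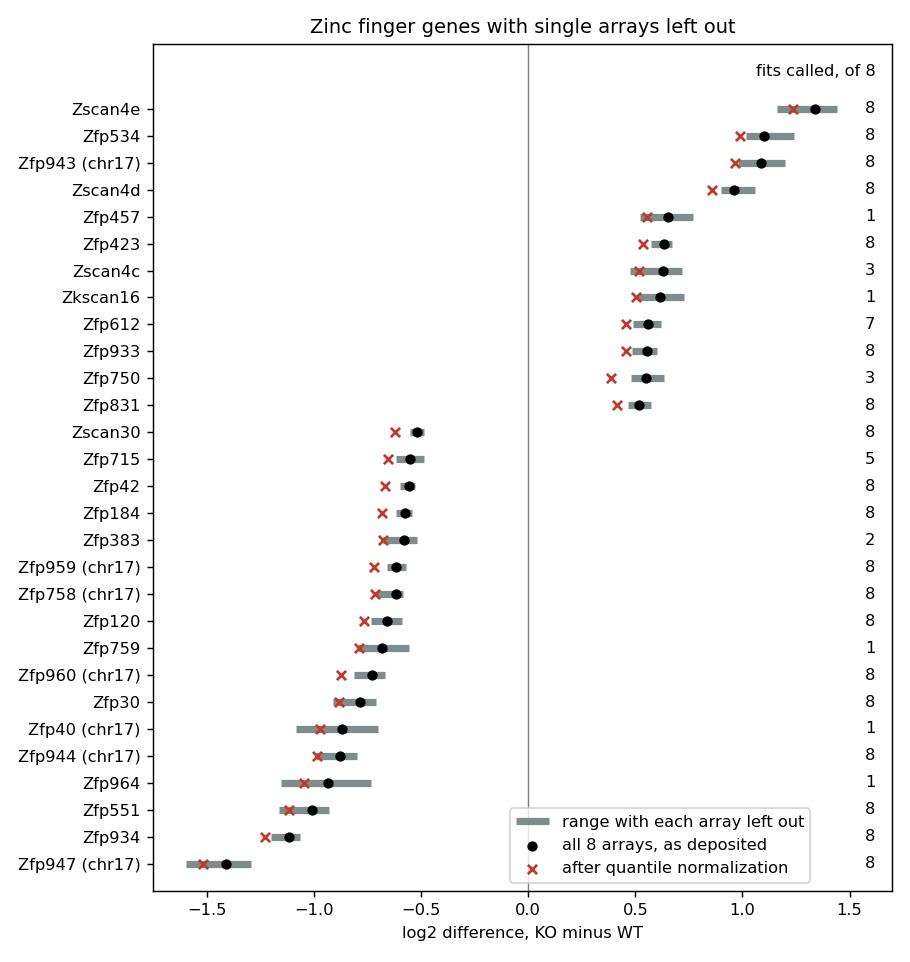
Log2 difference (KO minus WT, x axis) of each zinc finger gene on all 8 arrays as deposited (black points), after quantile normalization (red crosses), and its range over the 8 fits that each leave out 1 array (grey bars); the numbers at the right count the fits in which the gene was called at adjusted p under 0.05. In all 8 fits 19 genes were called, and the red crosses lie to the left of the black points.

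With each array left out in turn, 19 of the 29 genes were called in all 8 fits, among them 6 of the 7 on chromosome 17, the exception being Zfp40. Zfp40, Zfp964, Zfp759, Zfp457 and Zkscan16 were called in 1 fit each, Zfp383 in 2, Zfp750 and Zscan4c in 3, Zfp715 in 5 and Zfp612 in 7. The share of all probe sets called was 8.14%, 6.39%, 10.2% and 10.2% without KO replicates 1 to 4 and 10.4%, 6.75%, 6.91% and 8.53% without WT replicates 1 to 4. Without WT replicate 2 the higher genes still called numbered 7. The plot of differences with single arrays left out gives the range for each gene.

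Promoter composition is given as a description. The 300 bases around the RefSeq transcript start used (708 to 6569 bases inside the gene for Zfp933, Zfp959, Zfp423 and Zfp759) held a median of 12 CpG dinucleotides in the 20 matched genes (range 3 to 24), against 7 over 27025 RefSeq promoters. The median was 7 in the 7 higher genes (range 3 to 21) and 14 in the 13 lower genes (range 6 to 24), so the groups overlapped. Zfp943, which was higher, held 21 and the similar promoter of Zfp758, which was lower, held 20. The related Zscan4c and Zscan4d, both higher, held 4 and 3. Among the letters searched on both strands, CCAAT occurred in 11 of the 20 (55.0%, against 37.9% of all promoters) and CACGTG in 5 (25.0%, against 7.24%). The latter were Zfp933 and the 4 neighbours Zfp943, Zfp947, Zfp944 and Zfp758 of chromosome 17, where Zfp944 and Zfp758 share 162 bases of their windows. Zfp943 and Zfp758 hold CACGTG within the same stretch of their similar promoters (93.8% identity). The 5 are thus not independent sequences. TATAAA (14.2% of all) and TGANTCA (7.93% of all) each occurred in Zscan4c and Zscan4d alone. The motifs were chosen with the sequences in view.

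Counts for other zinc finger lists and partners follow, where 10.1% of all probe sets met the criteria of the table. Of 45 POZ zinc finger factors and of 19 partners of the KRAB co-repressor complex, Trim28 and Setdb1 among them, none was in the table. Of 26 Kruppel-like and Sp factors only Sp9 was, higher by 0.72 (SE 0.12). Of 34 Egr, Gli, Snai, Ikzf, Prdm and Zeb factors, the lymphoid factor Ikzf3 (1.12, SE 0.16) and Egr1 were higher, and of 8 CCCH RNA-binding proteins Zc3h12a, an RNA-degrading regulator of inflammation, was higher by 0.94 (SE 0.18). Among cell type markers, 2 of 11 T cell markers were higher, 2 of 15 skeletal muscle markers were lower (Tnnc2 and Mylk4), and no macrophage or dendritic cell marker was in the table. The log2 of the summed unlogged values of Tnnc2 and Mylk4 was 9.48 to 10.34 on KO arrays and 10.46 to 10.93 on WT arrays. Tnnc2, the brighter, makes up most of this sum. Both genes were chosen by the same comparison, so the gap between the groups follows from the choice. The part of changes in cell makeup in the zinc finger values was not tested.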

How the data were processed

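The log2 values deposited for 33793 probe sets of 8 Affymetrix Gene Mouse 2.0 ST arrays are RMA output, per the submitters' processing notes, with version and options not given in the sources used here. A second deposited file lists 3411 probe sets with mean log2 values, a linear fold ratio, p-values and adjusted p-values, filtered at 0.05 and a log2 size of 0.5 per the file headers; the fit below returned the same 3411. Per the labels' protocols, 9 µg of total RNA was labelled from tissue kept in preservative for up to 4 weeks. Groups came from the sample titles. KO minus WT was estimated for every probe set by linear models (limma 3.58.1, R 4.3.3), with two-sided moderated tests and Benjamini-Hochberg adjustment, and tested on simulated data. The number of arrays limits the precision. Symbols, chromosomes and cross-hybridisation classes came from the table, and the probe set with the highest mean stood for a gene. All 29 symbols were matched to RefSeq (GRCm38.p6). The first listed promoter of a symbol was used. Promoters were aligned globally in Biopython 1.88 (match 1, mismatch -1, gap opening -2, extension -0.5).

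Genes and lists were chosen with earlier results of these data known. By rule, values were given for all chromosome 17 members, the 8 largest rises and falls, up to 4 per list, the 2 brightest and the 2 nearest the size threshold in each direction, which took 22 genes; the other 7 were added so that every member was described. Alternatives were quantile normalization, median centring, no moderation, array weights, leaving out dim probe sets, a replicate block, leaving out class 3 and leaving out each array. Software was Python 3.11.15, pandas 2.3.3, numpy 2.4.6, scipy 1.17.1 and matplotlib 3.10.9.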

Additional observations from a re-analysis of the deposited data

Results flagged for a closer look

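In 3 of 60 groups of 4 arrays, 1 array stood apart from the other 3 by more than Dixon's 95% critical value, where chance gives about 1 in 20 groups. Zfp758 read 6.11 in KO replicate 3 and 5.74 to 5.76 in the other KO arrays, so this array lay nearer to WT. Zfp831 read 4.99 in WT replicate 1 against 4.96 in each of the other WT arrays, a gap that is large only beside a very small spread. Zkscan16 read 4.84 in KO replicate 2 and 5.03 to 5.06 in the other KO arrays.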

How the results depend on the processing

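Of 388 differences of single genes under an alternative, 379 moved by less than the spread between replicates, 9 moved by more (Zfp959, Zfp184, Zfp42, Zscan30 and Zfp423 under quantile normalization, and the last 4 also under median centring). Since the genes were chosen by size, that none changed direction is no sign of stability. With dim probe sets left out, only 11 of the 29 genes were tested, and 3 higher, 5 lower and 3 on chromosome 17 were called, with 718 calls over all probe sets in place of 4428. With single arrays left out, calls over all probe sets ranged from 2161 (without KO replicate 2) to 3504 (without WT replicate 1), and were 2281, 2335 and 2883 when WT replicate 2, 3 or 4 was dropped and 2751 when KO replicate 1 was, the higher zinc finger genes called from 7 to 10, the lower from 12 to 17 and those on chromosome 17 from 6 to 7; the median difference of the 29 ran from -0.60 to -0.53. These fits have fewer samples. As genes with small differences were left out by the choice, the median of the 29 mostly follows the direction of the majority. Without moderation 22 of the 29 genes were called (9 higher and 13 lower), where 9.60% of all probe sets were called. With array weights 28 were called (12 higher and 16 lower), where 13.5% of all probe sets were. With class 3 left out, 8 higher and 15 lower genes remained, and 6 on chromosome 17. With the replicate number as a block, 5150 probe sets were called, with 11 higher and 16 lower zinc finger genes and all 7 on chromosome 17. The numbers share no stated source: same-numbered KO and WT arrays deviated together with correlations of 0.55, -0.06, 0.28 and 0.30, and 3 of the 4 KO arrays correlated best with their own number. No zinc finger gene had several probe sets in the table, so averaging probe sets changed nothing and was not run.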
